A study of Mus musculus with 6 samples.

Results

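The colony-stimulating factors and their receptors were followed in bulge stem cell (SC) libraries from mice without epidermal integrin-linked kinase (ILK). The group held 8 of the 43274 genes in the deposited tables, found by their Ensembl identifiers. It comprised the 3 ligands Csf1, Csf2 and Csf3 and the 5 receptor chains Csf1r, Csf2ra, Csf2rb, Csf2rb2 and Csf3r. The genes were chosen by their names, with their normalized counts and the genotype differences in these same libraries known. Their difference between genotypes is therefore given as a description, with per-library values and a standard error (SE) and without p-values. Of the 8 genes, 6 had a mean of at least 10 normalized counts and were among the 16368 genes tested. Csf2 and Csf3 were below this limit. Csf3r passed it through the ILK-K5 libraries, since its control mean was 4.95 normalized counts.

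Bulge SCs are the slow-cycling cells of the resting hair follicle. They were sorted from the epidermis of 21-day-old mice by CD34 and a high level of α6 integrin, and 6 libraries of their polyadenylated RNA were sequenced. The 3 libraries labelled control came from mice with the genotype ILK +/-, which carried 1 floxed Ilk allele and a Cre transgene under the keratin 5 (K5) promoter. The 3 libraries labelled ILK-K5 came from ILK -/- mice, in which both alleles of Ilk were floxed and Cre was the same, so that both genotypes carried Cre under a promoter of basal epithelial cells. In both genotypes the deposited library names gave replicate 1 a tag of its own and replicates 2 and 3 another. Apart from the genotype, libraries with the same replicate number carried the same name. What these names mark is not given in the sources used here, and the controls of the study were littermates. The labels do not say whether a library came from 1 mouse or from pooled mice. The SEs are those of limma, in which the spread between a gene's libraries is drawn toward a trend over all tested genes.

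Colony-stimulating factors are secreted proteins that keep myeloid cells alive and drive their division and maturation. Csf1 (M-CSF) acts on macrophages, monocytes and epidermal Langerhans cells through the receptor tyrosine kinase Csf1r, whose other ligand is Il34. Csf2 (GM-CSF) binds the chain Csf2ra, which signals together with the common β chain Csf2rb, and Csf3 (G-CSF) acts on neutrophils and their precursors through Csf3r. Mice carry a second β chain gene, Csf2rb2, which serves the receptor for interleukin 3.

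The libraries held between 8228019 and 11969072 reads on genes. A single read was worth between 0.726 and 1.52 normalized counts, and mitochondrial genes took between 11.5% and 27.6% of the counts. Ilk, the deleted gene, had 11, 11 and 53 reads in control and 13, 40 and 30 reads in ILK-K5 libraries. Since 89.7% of its exon bases overlapped exons of Rrp8 and Taf10 on the other strand, its count checked no genotype label. The sorted cell type showed in all libraries by its markers, with Krt5 between 21489 and 64812 and Krt15 between 10084 and 97406 normalized counts. Cd34, the antigen of the sort, was lower in ILK-K5 (296, 560 and 433 against 2009, 947 and 1960 normalized counts, log2 fold change -1.90 ± 0.37 SE, adjusted p = 0.0239 by limma). The call did not hold when replicate 1 or 3 of either genotype was left out, with log2 fold changes between -2.25 and -1.65 over the 6 fits that left out 1 library. Markers of macrophages, Langerhans cells and other leukocytes were higher in the ILK-K5 libraries, and their values are set beside the receptors further on. In sorted bulk RNA, fewer cells of a type and less RNA per cell cannot be told apart.

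All 6 tested genes of the family were higher in every ILK-K5 library than in any control library (10.9% of all tested genes were), and none was lower in every one of them (6.95% of all tested genes were). Their median log2 fold change was 3.01, against 0.0054 for all tested genes. Csf1r, Csf2ra, Csf2rb and Csf2rb2 were called higher at an adjusted p of at most 0.05, as were 2.93% of all tested genes. None was called lower, as were 0.599% of all tested genes. As the genes were chosen with these differences known, nothing is read from these counts.

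**Figure D1:**
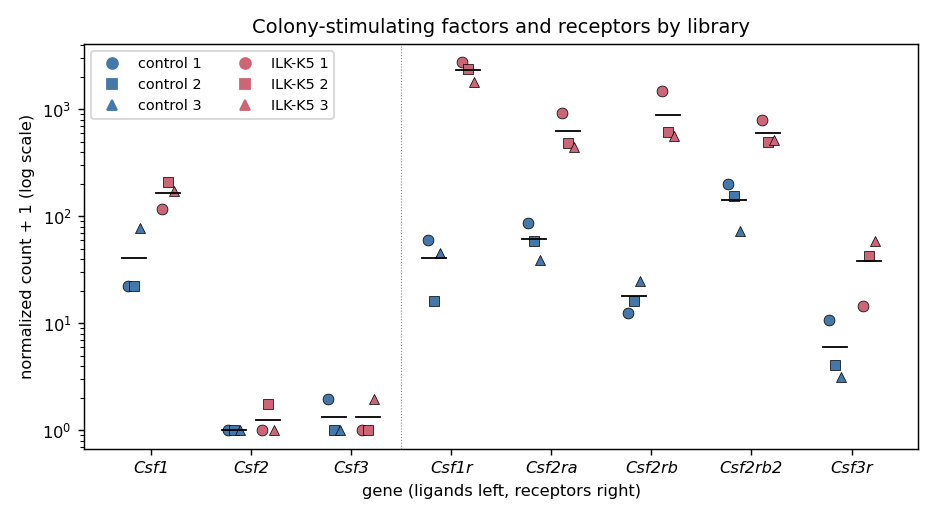
Normalized counts plus 1 on a log axis for the 3 ligand genes (left of the dotted line) and the 5 receptor genes, with 1 point per library (blue, 3 control; red, 3 ILK-K5) and the group mean as a bar. The ILK-K5 points lie above all control points for Csf1 and the 5 receptor genes, from 13.7 to 57.5 normalized counts for Csf3r up to 1793 to 2747 for Csf1r, whereas Csf2 and Csf3 stay at 0 or 1 read.

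Among the ligands, Csf1 was the only one detected above 3 reads. The gene lies on the minus strand of chromosome 3 (107741048-107760469, GRCm38), in 12 exon blocks that no other annotated gene overlaps. In control libraries 1, 2 and 3 it had 21.2, 21.3 and 76.9 normalized counts, and in the ILK-K5 libraries, in the same order, 115, 210 and 173. Control library 3 was the highest of its group and ILK-K5 library 1 the lowest of the other, and the genotypes did not overlap. The log2 fold change was 2.26 ± 0.55 (SE, n = 3 against 3), and Csf1 was not called. Without control library 3 the log2 fold change was 2.87 and Csf1 was called. Per length, its mean level went from 0.776 ± 0.626 to 3.24 ± 0.93 FPKM (SD, n = 3), from percentile 15.6 to percentile 45.4 of all tested genes.

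The 300-base window around the Csf1 start, most of it upstream, is shown because it held 1 match to an NF-kB motif (GGGA, any base, then TTTCC, searched on both strands), which 0.411% of 32851 promoter windows of the same length held. The sequence is from RefSeq (GRCm38.p6, chr3:107760420-107760719, minus strand, 5′ to 3′), with the match, on the antisense strand from base 97 of the window, in capitals.
Csf1: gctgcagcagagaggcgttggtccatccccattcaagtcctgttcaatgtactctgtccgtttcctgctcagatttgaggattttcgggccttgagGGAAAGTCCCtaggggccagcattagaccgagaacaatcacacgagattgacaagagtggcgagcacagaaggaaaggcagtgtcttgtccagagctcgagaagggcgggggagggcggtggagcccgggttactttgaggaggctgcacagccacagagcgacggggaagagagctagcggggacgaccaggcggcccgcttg
A match describes the letters of the window and shows no binding.

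The other 2 ligands gave almost no reads. Csf2 (chromosome 11, 54247271-54249667, minus strand) had 0 reads in all libraries but ILK-K5 library 2, which had 1. Csf3 (chromosome 11, 98701263-98703629, plus strand) had 1 read in control library 1 and 1 in ILK-K5 library 3. A level of up to 3 reads per library, between 0.279 and 0.585 FPKM for Csf2 and between 0.158 and 0.331 FPKM for Csf3, would not have been told from 0 at this depth. These limits cover counting error only, and no fold change is given for either gene.

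Csf1r encodes the receptor for Csf1 and Il34 and had the largest log2 fold change of the family over all 6 libraries. Csf2rb was ahead of it without control library 2 (5.50 against 5.45) and between the libraries numbered 1 (6.89 against 5.52). It had 58.9, 15.2 and 44.3 normalized counts in control and 2747, 2390 and 1793 in ILK-K5 libraries. Every ILK-K5 library stood far above the control libraries, of which the second held 10 reads on the gene. The log2 fold change was 6.01 ± 0.47, a 58.6-fold ratio of the means. The gene is on the plus strand of chromosome 18, and 15.1% of its exon bases lie in exons of Hmgxb3 on the other strand. Hmgxb3 had 54.0, 59.3 and 100.1 normalized counts in control and 43.3, 61.7 and 61.4 in ILK-K5 libraries (log2 fold change -0.32 ± 0.42). Per length, Hmgxb3 was at 1.09 to 2.01 FPKM in control, where Csf1r was at 0.319 to 1.24, and at 0.870 to 1.24 FPKM in ILK-K5 libraries, where Csf1r was at 37.6 to 57.7. How reads in the shared exons were assigned is not given in the sources used here.

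Csf2ra, the ligand-binding chain for GM-CSF, had 85.9, 57.8 and 38.5 normalized counts in control and 932, 485 and 446 in ILK-K5 libraries. Replicate 1 was the highest library of each genotype, and the genotypes did not overlap. The log2 fold change was 3.33 ± 0.41, a 10.2-fold ratio of the means. It lies on the minus strand of chromosome 19 (61223957-61228429) and shares no exon base with another annotated gene.

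The common β chain Csf2rb, which carries the signal of the GM-CSF, interleukin 3 and interleukin 5 receptors, had 11.6, 15.2 and 23.9 normalized counts in control libraries, equal to 12, 10 and 33 reads. In ILK-K5 libraries it had 1494, 611 and 568 normalized counts. ILK-K5 library 1 held more than any other library, as for Csf2ra. The log2 fold change was 5.55 ± 0.46, a 52.7-fold ratio of the means. Without ILK-K5 library 1 the log2 fold change was 5.10 and the ratio of the means 34.9-fold.

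The other β chain, Csf2rb2, had a higher control level than Csf2rb per length (3.16 against 0.364 FPKM on average). Its normalized counts were 199, 155 and 72.6 in control and 792, 492 and 512 in ILK-K5 libraries. Here too library 1 was the highest of both genotypes, and the genotypes did not overlap. The log2 fold change was 2.15 ± 0.41, a 4.21-fold ratio of the means. The call was lost without control library 2 (log2 fold change 2.27), ILK-K5 library 1 (1.93), ILK-K5 library 2 (2.27) or ILK-K5 library 3 (2.25), and kept without control library 1 or 3.

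Both β chain genes lie next to each other on chromosome 15, Csf2rb on the plus strand (78325752-78353847) and Csf2rb2 on the minus strand (78282507-78305721). Their coding sequences, of 2691 and 2637 bases, were identical at 95.2% of 2631 aligned bases, with a longest identical run of 242 bases. Of all 100-base windows of the Csf2rb coding sequence, 11.0% also occurred in Csf2rb2, and 11.3% the other way round. Over the whole annotated transcripts, which the counts cover, the shares were smaller, at 4.63% and 6.82%. The reads were paired, and the sequence of the mate was not considered here. A read of 100 bases from such a window could not be assigned to 1 of the genes by its own sequence, and how the counting treated it is not given in the sources used here. Coding bases 19 to 138 are shown as an example of how few letters separate the transcripts, taken from the GENCODE M21 transcripts of GRCm38, 5′ to 3′, with the 6 differing bases in capitals.
Csf2rb: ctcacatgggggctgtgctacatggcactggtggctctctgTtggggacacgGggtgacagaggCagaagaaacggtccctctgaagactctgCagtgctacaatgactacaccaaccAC
Csf2rb2: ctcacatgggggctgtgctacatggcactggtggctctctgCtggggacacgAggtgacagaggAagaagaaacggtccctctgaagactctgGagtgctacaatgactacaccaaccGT
The split of reads between both genes is uncertain in proportion to such shared stretches.

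Csf3r, the receptor for G-CSF, had the lowest FPKM of the tested receptors. It is on the plus strand of chromosome 4 (126024550-126044440). It had 9.65, 3.04 and 2.18 normalized counts in control libraries, or 10, 2 and 3 reads, and 13.7, 41.6 and 57.5 in ILK-K5 libraries, or 12, 54 and 59 reads. ILK-K5 library 1 lay just above control library 1, while libraries 2 and 3 of the genotypes were far apart. The log2 fold change was 2.69 ± 0.80, and Csf3r was not called. The log2 difference was 0.46 between the libraries numbered 1 and 3.80 between those numbered 2 and 3. The corresponding log2 differences of the other tested members, replicate 1 first, were 2.38 and 2.2 (Csf1), 5.52 and 6.26 (Csf1r), 3.43 and 3.28 (Csf2ra), 6.89 and 4.87 (Csf2rb) and 1.99 and 2.23 (Csf2rb2).

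**Figure D2:**
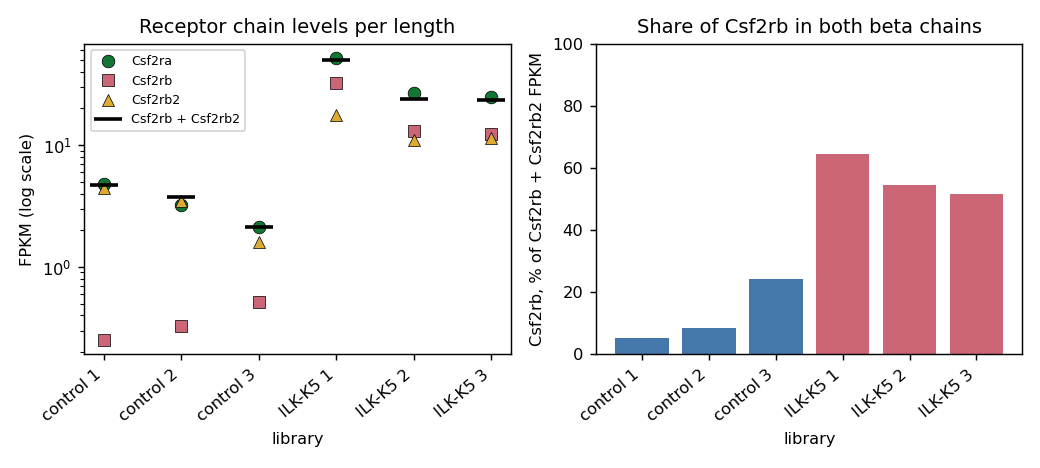
Left, FPKM on a log axis of Csf2ra, Csf2rb and Csf2rb2 in each library, with the sum of both β chains as a black bar. Right, Csf2rb as a percentage of the summed FPKM of both β chains, which was 5.34 to 24.2% in the 3 control libraries and 51.8 to 64.6% in the 3 ILK-K5 libraries.

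The 3 chains of the GM-CSF and interleukin 3 receptors were compared per length, after their values had been seen. Csf2rb was a minor β chain in control libraries, at 5.34, 8.67 and 24.2% of the summed FPKM of both. In ILK-K5 libraries it was the larger part, at 64.6, 54.6 and 51.8%. The shares did not overlap, and the change follows from the larger fold difference of Csf2rb.

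Set against both β chains together, the α chain held nearly the same proportion in all libraries. The ratio of Csf2ra to summed β chain FPKM was 1.02, 0.849 and 1.0 in control and 1.04, 1.12 and 1.05 in ILK-K5 libraries. The ILK-K5 ratios were slightly above the control ratios while the FPKM of Csf2ra itself ranged from 2.13 to 51.7. Against Csf2rb alone, the ratio of Csf2ra was 19.1, 9.79 and 4.14 in control and 1.61, 2.05 and 2.02 in ILK-K5 libraries, without overlap. The summed β chains include Csf2rb2 of the interleukin 3 receptor, so the near-constant ratio is not that of the GM-CSF receptor chains. The sum of both β chains is less exposed than either chain to reads assigned to the wrong one of them. A ratio of FPKM rests on the lengths used by the authors and gives no number of receptor proteins.

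The windows around the starts of Csf2ra, Csf2rb2 and Csf3r are shown because each held the core motif of the myeloid factor PU.1 (GAGGAA, both strands), which 28.3% of all promoter windows held. They are from RefSeq (GRCm38.p6), 5′ to 3′ on the strand of the gene, at chr19:61228369-61228668 (minus), chr15:78305672-78305971 (minus) and chr4:126024409-126024708 (plus).
Csf2ra: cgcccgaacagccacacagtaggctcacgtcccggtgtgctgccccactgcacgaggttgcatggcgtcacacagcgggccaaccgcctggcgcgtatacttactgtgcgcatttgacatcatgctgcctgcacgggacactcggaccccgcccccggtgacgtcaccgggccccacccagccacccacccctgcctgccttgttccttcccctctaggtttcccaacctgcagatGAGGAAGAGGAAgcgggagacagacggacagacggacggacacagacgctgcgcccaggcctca
Csf2rb2: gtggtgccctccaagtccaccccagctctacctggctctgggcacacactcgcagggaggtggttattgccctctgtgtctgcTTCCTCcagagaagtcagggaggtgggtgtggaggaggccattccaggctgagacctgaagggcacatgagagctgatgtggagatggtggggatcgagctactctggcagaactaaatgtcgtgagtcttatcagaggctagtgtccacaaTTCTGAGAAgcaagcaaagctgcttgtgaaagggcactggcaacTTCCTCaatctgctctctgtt
Csf3r: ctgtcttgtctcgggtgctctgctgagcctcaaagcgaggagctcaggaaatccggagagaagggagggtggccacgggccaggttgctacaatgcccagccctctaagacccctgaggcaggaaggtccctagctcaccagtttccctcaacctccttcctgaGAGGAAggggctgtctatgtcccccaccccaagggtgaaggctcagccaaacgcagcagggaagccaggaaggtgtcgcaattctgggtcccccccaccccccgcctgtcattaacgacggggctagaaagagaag
The capitals mark the PU.1 letters, which stood from base 237 and from base 243 of the Csf2ra window, from bases 84 and 280 of the Csf2rb2 window (antisense) and from base 165 of the Csf3r window. In Csf2rb2 they also mark a STAT motif (TTCNNNGAA) from base 236, which 8.30% of promoter windows held. None of these windows held the AP-1 letters TGANTCA (7.81% of windows), and the C/EBP letters TTGCNNAA (10.8% of windows) were found in the family in the Csf2 window alone. Windows of Csf3, Csf1r and Csf2rb were not searched.

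Per length, the order of the genes changed between genotypes. In control libraries Csf2ra (3.37 ± 1.32 FPKM, SD, n = 3) and Csf2rb2 (3.16 ± 1.43) came first and overlapped. Csf1r (0.828 ± 0.466), Csf1 (0.776 ± 0.626), Csf2rb (0.364 ± 0.137) and Csf3r (0.141 ± 0.116) followed. From Csf1r on, each overlapped the gene before it, while Csf1r did not overlap Csf2rb2. All control means thus lay below the median of the tested genes, with the highest, that of Csf2ra, at percentile 48.2.

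In ILK-K5 libraries Csf1r led with 48.5 ± 10.1 FPKM, at percentile 94.4 of all tested genes. Csf2ra (34.5 ± 15.0), Csf2rb (19.2 ± 11.2) and Csf2rb2 (13.3 ± 3.7) followed, each overlapping the one before it, at percentiles 92.0, 85.4 and 79.6. Csf1 (3.24 ± 0.93) and Csf3r (1.07 ± 0.63) were lower than all of these and did not overlap each other. The FPKM of Csf1r exceeded that of its ligand Csf1 by 25.7, 12.3 and 11.1 times in the ILK-K5 libraries and was 2.99, 0.769 and 0.620 times that of Csf1 in control libraries.

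The other genes of these pathways came from 4 lists that were drawn up with earlier results of these libraries known. Of 62 listed genes, 61 were in the table and 50 were tested. Of these, 16 were called higher (32.0%, against 2.93% of all tested genes) and none was called lower at an adjusted p of at most 0.05 by limma, while 29 had an unadjusted p under 0.05 (12.3% of all tested genes in either direction). Their median log2 fold change was 1.12. Of the 16 genes called, 7 had a control mean under 10 normalized counts and passed the limit on low values through the ILK-K5 libraries. The count fell to 10 without ILK-K5 library 1, 2 or 3. With a term that set the libraries numbered 1 apart, limma called 23, among them Kit (adjusted p = 0.0274), Socs3 (0.00225), Pim1 (0.0362) and Stat3 (0.0448), which were not called without the term.

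**Figure D3:**
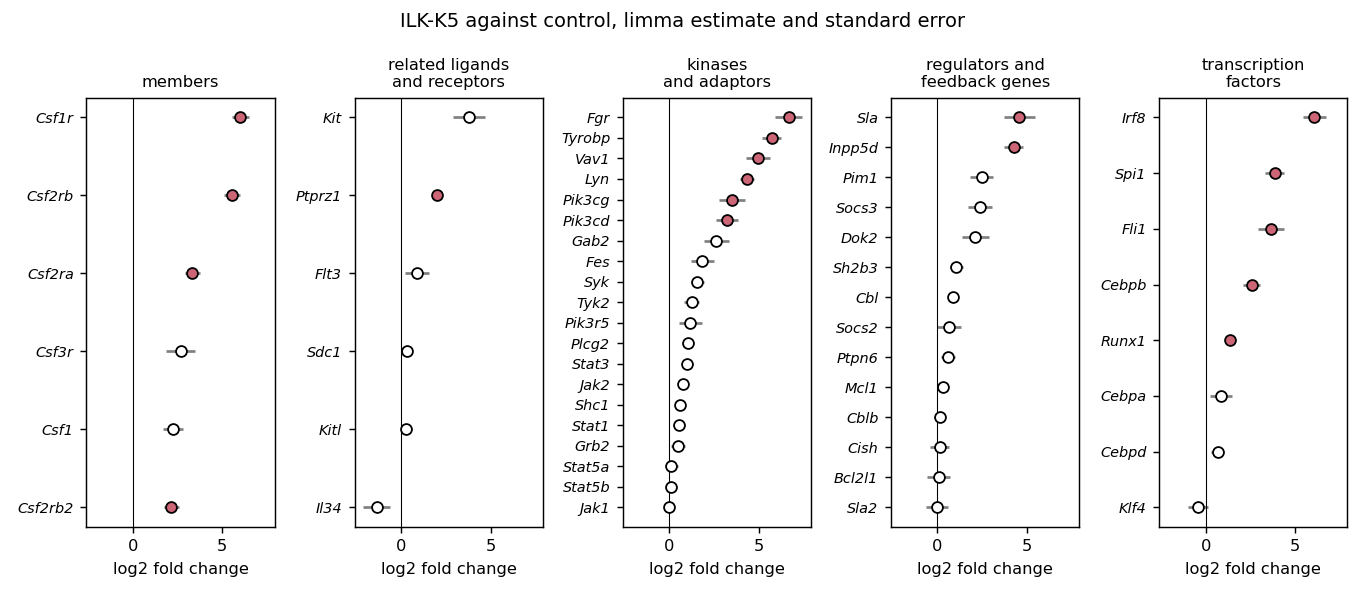
Log2 fold change of ILK-K5 against control with its SE from limma for the 6 tested members and for the tested genes of 4 pathway lists that are reported here. Filled points are genes called higher at an adjusted p of at most 0.05, which are 4 members, 1 related receptor, 6 kinases and adaptors, 2 regulators and 5 transcription factors as drawn, and no point is called lower.

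Among related ligands and receptors, 1 of 6 tested genes was called higher. It was Ptprz1, a receptor phosphatase that also binds Il34, with 101, 125 and 128 normalized counts in control and 447, 500 and 463 in ILK-K5 libraries (log2 fold change 1.99 ± 0.27, adjusted p = 0.00369 by limma). Il34, the keratinocyte-derived ligand of Csf1r, had 11.6, 18.2 and 61.7 normalized counts in control and 5.69, 11.6 and 9.74 in ILK-K5 libraries, and was not called (log2 fold change -1.36 ± 0.75, adjusted p = 0.577 by limma). Thus Csf1 and Il34, the ligands of the same receptor, had fold changes of opposite sign, and neither passed the threshold.

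Kit, the receptor for stem cell factor and a relative of Csf1r, had at most 3.04 normalized counts in control and 21.6, 20.1 and 22.4 in ILK-K5 libraries. This is at least 6.65-fold higher against a floor of 3 reads per library, with an adjusted p of 0.0578 by limma, and Kit was called without control library 2. Its ligand Kitl (log2 fold change 0.30), the dendritic cell receptor Flt3 (0.87) and the heparan sulfate carrier Sdc1 (0.34) were not called. The β chain partners Il3ra and Il5ra were below the limit for testing. Il3 and Epo had no read in any library, and Il5 had 1 read in ILK-K5 library 3.

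Of 21 receptor-proximal kinases and adaptors, all tested, 7 were called higher. The Src family kinase Lyn had 11.6, 15.2 and 26.1 normalized counts in control and 376, 403 and 305 in ILK-K5 libraries (log2 fold change 4.35 ± 0.41, adjusted p = 0.000583 by limma). Fgr (6.68 ± 0.75), a kinase of the same family, rose as well. So did Tyrobp, an adaptor of myeloid receptors (5.73 ± 0.53), the exchange factor Vav1 (4.95 ± 0.66) and the leukocyte phosphoinositide 3-kinase subunits Pik3cg (3.50 ± 0.73) and Pik3cd (3.23 ± 0.60).

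The other 14 genes of this list were not called. Among them, Jak2, the kinase bound to Csf2rb, had 356, 325 and 433 normalized counts in control and 709, 583 and 606 in ILK-K5 libraries (log2 fold change 0.77 ± 0.26, adjusted p = 0.195 by limma). Stat5a (0.13 ± 0.36) and Stat5b (0.12 ± 0.33), the factors it activates downstream of GM-CSF, and Jak1 (-0.02 ± 0.24) had fold changes smaller than their errors. Stat3, a main factor downstream of G-CSF, was at 1.01 ± 0.32 (adjusted p = 0.166), and was called without control library 3.

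Of 14 tested negative regulators and feedback genes, 2 were called higher, the inositol phosphatase Inpp5d (log2 fold change 4.26 ± 0.55, adjusted p = 0.00261 by limma) and the adaptor Sla (4.57 ± 0.85, adjusted p = 0.0194). Cish, a feedback gene induced by Stat5, had 51.1, 45.6 and 144 normalized counts in control and 114, 65.6 and 58.4 in ILK-K5 libraries, with overlapping genotypes (log2 fold change 0.12 ± 0.52, adjusted p = 0.967 by limma). Socs3, which limits the G-CSF receptor, had 464, 66.9 and 160 in control and 1770, 757 and 533 in ILK-K5 libraries and was not called (2.38 ± 0.67, adjusted p = 0.112 by limma), except without control library 1. The same held for the kinase gene Pim1 (2.48 ± 0.65, adjusted p = 0.0853 by limma), except without control library 3.

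Among the transcription factors known to act on the receptor genes, 6 of 9 tested were called higher. Spi1, which encodes PU.1, had 3.86, 6.08 and 7.26 normalized counts in control and 82.0, 140 and 71.1 in ILK-K5 libraries (log2 fold change 3.85 ± 0.54, adjusted p = 0.00432 by limma). Irf8, a factor of monocytes and dendritic cells, was at least 35.7-fold higher against a floor of 3 reads per library. Fli1 (3.66 ± 0.71), Cebpb (2.58 ± 0.47) and Runx1 (1.34 ± 0.27) rose too. Runx1, which bulge SCs also express, had between 1184 and 1332 normalized counts in the control libraries. Klf4 (-0.42 ± 0.57) and Cebpa (0.86 ± 0.61) were not called, and Cebpe had no read in any library. Of the 16 pathway calls, 7 depended on single libraries, with log2 fold changes given here as the range over the fits without 1 library. Spi1 (3.56 to 4.04) was lost without ILK-K5 library 2 and Pik3cd (2.86 to 3.80) without any 1 of the ILK-K5 libraries. Cebpb (2.45 to 2.79), Fli1 (3.17 to 4.32), Sla (3.73 to 5.66) and Pik3cg (2.57 to 4.08) were lost without control library 2 or any 1 of the ILK-K5 libraries, and Runx1 (1.17 to 1.56) when control library 1 or 2, or ILK-K5 library 1 or 3, was left out.

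Markers of leukocytes moved with the receptors. Over all tested genes, 2.93% were called higher and 0.599% lower, and these shares stand beside each count of the marker lists. Of 14 macrophage markers, 13 were tested and 12 were called higher. Among those called, 5 had no control library above 3 reads and passed the limit on low values through the ILK-K5 libraries. So did Mrc1, C1qc and Msr1, with control means of 3.49, 1.45 and 8.90 normalized counts. Genes of later lists, such as Cx3cr1 (control mean 4.42 normalized counts), passed it in the same way. Nothing is read from these counts. The median log2 fold change of the list was 6.53, and 6.15 when genes at the floor of 3 reads in control libraries were set to their bound. The summed level of the list went from between 759 and 1239 normalized counts in control to between 10081 and 14376 in ILK-K5 libraries. The remaining tested marker, Mertk, gave 506, 961 and 710 of the control sums and was not called (log2 fold change -0.01). Fcgr1 had no read in any control library.

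The Langerhans and dendritic cell list, of which 4 of 9 tested markers were called higher, summed to between 67.5 and 808 normalized counts in control and between 25068 and 37947 in ILK-K5 libraries. The called markers were Itgax, Cd74, H2-Aa and H2-Ab1. Itgax gave 1043, 770 and 767 of the ILK-K5 sums, and most of these sums came from neither Itgax nor Cd207. Cd207, the defining marker of Langerhans cells, had 7.72, 42.6 and 68.2 in control and 425, 133 and 108 in ILK-K5 libraries and was not called (2.63 ± 0.80, adjusted p = 0.148 by limma). The calls of Cd74 and H2-Ab1 were lost without control library 2 or any 1 of the ILK-K5 libraries.

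Neutrophils are the cells best known for Csf3r. Of the neutrophil list, 3 of 11 genes were tested and 2, S100a8 and S100a9, were called higher, both of which keratinocytes can also express. The list summed to between 31.9 and 63.7 normalized counts in control and between 207 and 262 in ILK-K5 libraries. The call of S100a8 was lost without control library 2 or any 1 of the ILK-K5 libraries. The remaining tested gene, the chemokine receptor Cxcr2, was higher in every ILK-K5 library than in any control library. It was not called (log2 fold change between 1.16 and 1.43 over the fits without 1 library). The defining genes Ly6g, Elane, Ngp and Retnlg had no read in any ILK-K5 library. In control libraries, Ly6g had 10.6, 3.04 and 1.45 normalized counts and the other genes at most 3 reads in a library. The untested genes not named here had reads in ILK-K5 libraries. The sums of the list were near each other in the 3 ILK-K5 libraries, where Csf3r ranged from 13.7 to 57.5, and the source of the Csf3r reads was not tested.

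Of the monocyte list, 2 of 4 tested genes (Ccr2 and Cx3cr1) were called higher, with sums from 26.8 to 69.5 in control and from 1476 to 2044 normalized counts in ILK-K5 libraries, and Plac8 had no read in any control library. Of the T cell list, 2 of 5 tested genes were called higher, Cd4 and Cd2, with sums from 119 to 175 and from 308 to 352, and Cd2 lost its call without any 1 of the ILK-K5 libraries. The mast cell list had no tested gene, and 6 of its 7 genes had no read in any ILK-K5 library. The only tested B cell gene was not called, and 1 of 4 fibroblast genes (Col3a1), none of 3 endothelial genes and none of 7 basal keratinocyte genes were called higher. Of 5 melanocyte genes, Mitf was called lower, except without control library 2 or ILK-K5 library 2, and of 6 bulge genes, Cd34.

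**Figure D4:**
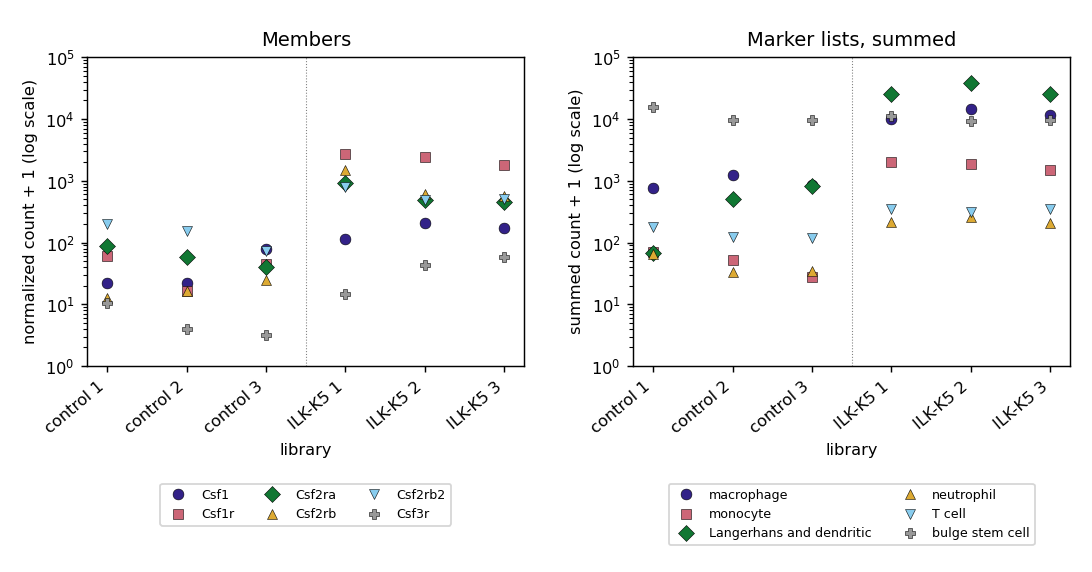
Left, normalized counts plus 1 of the 6 tested members in each library, and right, summed normalized counts plus 1 of 6 marker lists in the same libraries, both on log axes. The macrophage sum rises from at most 1239 in control to at least 10081 in ILK-K5 libraries next to Csf1r, while the bulge list stays between 9200 and 15519 in all 6.

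Set against the whole macrophage list, Csf1r had 77.5, 12.3 and 52.7 normalized counts per 1000 counts of the list in control and 272, 166 and 157 in ILK-K5 libraries. Csf2rb had 15.2, 12.3 and 28.5 in control and 148, 42.5 and 49.8 in ILK-K5 libraries. The proportions of both genes to the list were highest in ILK-K5 library 1. The control sums consisted mostly of Mertk, which did not rise and lowers the control proportions. They are therefore not read as a rise of the receptors beyond the macrophage markers. Against the macrophage marker Adgre1 alone, Csf1r was 61, 0.909 and 2.77 times as high in control and 3.20, 3.16 and 2.61 times in ILK-K5 libraries. These ratios overlapped, and Adgre1 had 1, 11 and 22 reads in control. The sort for CD34 and α6 integrin was meant to select follicle epithelium, and the part of leukocyte RNA in the values of the receptors was not tested.

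Over the 6 libraries, the log2 values of the tested members correlated with each other at a Pearson r between 0.589 (Csf1 and Csf2rb2) and 0.980 (Csf2ra and Csf2rb2). These correlations hold the genotype difference and the library as shared sources and are descriptions without a test. The tested genes most like each member were taken by the highest r over the same 6 libraries. For Csf1r they were the myeloid genes Pirb (r = 0.999), Ms4a6d (0.998) and Fyb (0.997), and for Csf2rb the filament gene Vim (0.999), Cd84 (0.998) and Cd93 (0.997).

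Vim shared the order of all libraries with Csf2rb, at 28.9, 45.6 and 92.9 normalized counts in control and 12428, 5391 and 4040 in ILK-K5 libraries. For Csf2ra the nearest genes included Cxcl9 (0.999) and Rftn1 (0.995), and for Csf2rb2 they were Zeb2 (0.997), Slamf6 (0.996) and Apbb1ip (0.995). Those of Csf1 included the lysosomal mannosidase Man2b1 (0.997) and 5031439G07Rik (0.997). Csf3r was followed by H13 (0.995), Rhot2 (0.981) and the leukocyte integrin activator Fermt3 (0.981). With 6 libraries, r over 0.95 was reached by 17 genes for Csf3r and by 347 genes for Csf2rb, so that the nearest genes are a few of many.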

How the data were processed

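Bulge SCs were isolated by FACS into TRIzol LS. Per the labels and the study's methods, cDNA was amplified with the Ovation RNA-Seq System V2, libraries were made with Nextera XT and sequenced as paired reads. The authors removed adapters and ribosomal RNA reads, aligned the rest to GRCm38 (TopHat2 2.0.14 and Bowtie2 2.2.4 per the submitters' processing notes) and used DESeq2 1.6.3. The program that counted reads per gene, and whether it used strand, is not given in the sources used here.

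The authors deposited a signal table of normalized counts, which here were whole multiples of 1 smallest value per library for 100% of the values (relative tolerance 0.001). Reads were recovered by dividing by it. Their deposited FPKM table equals these values times 1 constant per gene (100% of genes). A deposited table of the authors' own comparison (signal means, log2 fold changes, scores, p-values) was not used. GENCODE M21 (GRCm38) gave symbols for 42107 genes (97.3%), coordinates, exons and coding sequences, and RefSeq (GRCm38.p6) gave promoter windows for 5 of the 8 members.

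Genotypes were compared with limma 3.58.1 (lmFit, eBayes with a trend; two-sided) in R 4.3.3 on log2(normalized count + 1) over every gene whose 6 libraries averaged 10 normalized counts or more, and calls were made at 0.05 or less after Benjamini-Hochberg adjustment over all of them. Fold changes of low genes are understated on this scale. Genes with no control library above 3 reads were set against that floor. edgeR 4.0.16 and DESeq2 1.42.0 were run on the recovered reads as alternatives, beside other pseudocounts, filters, scalings and left-out libraries. The fit was tested on simulated counts with the same dispersion for every gene and independent libraries. This does not show how the calls behave with the spread of the real libraries.

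The members, the gene lists and the motifs were chosen with earlier results of these data known. Named were Ilk, the members, called or described genes of the lists (at most 6 called genes first, largest change first, plus genes with a described role) and the 3 genes most correlated with each tested member. The ratios between receptor chains, to the macrophage list and to Adgre1, and Hmgxb3, were chosen after the values had been seen. Flt3l and Trdc had no match in the table and were not analysed here. A few genes that the naming rule or the lists hold are counted but not reported here by name.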

Additional observations from a re-analysis of the deposited data

How the results depend on the processing

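Between 4 and 6 of the 6 tested members were called higher under the 12 alternative settings and between 3 and 5 in the 6 fits without 1 library, and no member or other pathway gene was called lower in any of these fits. Csf1 was also called without a filter on low values, in DESeq2, with a replicate block and with a term for replicate 1, and Csf3r in DESeq2 and in replicates 2 and 3 alone. The cause was not tested. A minimum mean of 50 left Csf3r untested. The count of other pathway genes called higher was between 14 and 24 under the alternatives and between 10 and 18 without 1 library. Over all genes, DESeq2 called 772 higher and 280 lower, the term for replicate 1 846 and 286, and fits without 1 library between 222 and 559 higher and between 32 and 98 lower. Without the filter the median log2 fold change of all genes was -0.10.

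With a replicate block, limma called 848 genes higher and 269 lower, 5 members and 24 other pathway genes. Same-numbered libraries deviated from their group means with correlations of 0.53, 0.02 and 0.31, and control library 3 correlated best with ILK-K5 library 2 (0.498). With 3 libraries per genotype, these correlations cannot decide whether the replicate numbers pair the libraries. Control library 1 correlated positively with ILK-K5 library 1 alone. Deviations from a group mean cancel within each genotype, which favours such opposite signs. Control library 2 correlated at -0.06, 0.02 and 0.07 with ILK-K5 libraries 1, 2 and 3. These values therefore cannot show what the tag in the deposited names marks. With the block, Csf1 was called in addition, as were Kit (adjusted p = 0.0375 by limma), Socs3 (0.00123), Pim1 (0.0206) and Stat3 (0.0402). Low counts set a limit for Csf2, Csf3 and the control level of Csf3r.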
